A study of Mus musculus with 10 samples.

Results

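STAT and SOCS genes carry and limit the response of a cell to many cytokines, and the 9 described here were Stat3, Stat4, Stat5a, Stat5b, Stat6, Socs1, Socs2, Socs3 and Cish. They were taken by gene symbol from a table of RNA-seq read counts over 53342 genes in mouse lung. Each symbol matched a single row of the table. In GRCm38, Stat5b (chr11:100780731-100850724), Stat5a (chr11:100859351-100885169) and Stat3 (chr11:100885098-100939540) lie side by side, with Socs3 further along the same chromosome (chr11:117966079-117970047). Stat6 (chr10:127642986-127660957) and Socs2 (chr10:95385362-95417180) share chromosome 10, and Stat4 (chr1:51987148-52107189), Socs1 (chr16:10782240-10785536) and Cish (chr9:107296026-107302784) lie elsewhere. The level of a gene is given as CPM, its count for every 1000000 counts of the library.

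A cytokine that binds its receptor activates Janus kinases (JAKs) bound to the receptor chains, which phosphorylate STAT proteins, and the STATs then pair, enter the nucleus and act as transcription factors. STAT6 carries IL-4 and IL-13 signals, STAT4 carries IL-12 signals, STAT5A and STAT5B carry IL-2, IL-7, GM-CSF and growth hormone signals, and STAT3 carries IL-6 family signals. CIS (the product of Cish), SOCS1, SOCS2 and SOCS3 are inhibitors that bind receptors or JAKs, and their genes are themselves STAT targets, so that they form a negative feedback loop. In the allergic lung the pathway is best known for IL-4 and IL-13 acting through STAT6.

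The animals were given house dust mite extract (HDM), an inhaled allergen, 5 days a week for 3 weeks, and the study asked what SF-3-030, a small molecule aimed at a subset of the functions of the kinases ERK1/2, did to the response. There were 4 libraries of lung from animals given phosphate-buffered saline (PBS), 3 from animals given HDM, for which the label names DMSO beside the allergen, and 3 from animals that received SF-3-030 through the nose at 10 mg/kg, 30 min ahead of the allergen. All were labelled female BALB/c, 12 weeks old. The labels give no group with SF-3-030 and no allergen, they do not name DMSO for PBS, and they do not say whether replicates were separate animals, so p-values measure the spread between these libraries.

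The libraries held 38667118 to 59083942 counts each, and 6 of 6 lung epithelial markers were detected in every library. Some libraries went against their labels. H2-Ea-ps, read from an MHC class II gene that BALB/c mice express and C57BL/6 mice do not, reached 330.8 to 432 CPM in all 3 libraries from SF-3-030+HDM, whereas the other 7 held 0.107 to 0.953 CPM. The compound and this strain difference therefore cannot be told apart in any comparison that uses the SF-3-030+HDM libraries, whereas HDM against PBS lies within the other 7. The Y-linked gene Ddx3y stood above 10 CPM in PBS replicate 2, HDM replicate 2 and HDM replicate 3, although all libraries were labelled female. Values without these 3 libraries are given beside each call of a member, and as counts for the pathway lists, in fits that leave a single HDM library.

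Sequences just around the transcription start were searched for STAT sites. The core STAT site, TTCNNNGAA, reads the same on both strands and was searched together with the longer form TTCNNNNGAA, which STAT6 prefers and which also reads the same on both strands. In the RefSeq promoters (GRCm38.p6, 250 bases before the start to 50 after), 8 of the 9 genes had an entry, 11 promoters in all. Socs2 had no entry and was not searched. Cish (chr9:107296409-107296708, + strand), Socs3 (chr11:117969317-117969616, - strand) and Socs1 (chr16:10785487-10785786, - strand) are shown because they are the feedback genes among the 8. They read 5′ to 3′ on the strand of the gene, and capitals mark TTCNNNGAA.
Cish: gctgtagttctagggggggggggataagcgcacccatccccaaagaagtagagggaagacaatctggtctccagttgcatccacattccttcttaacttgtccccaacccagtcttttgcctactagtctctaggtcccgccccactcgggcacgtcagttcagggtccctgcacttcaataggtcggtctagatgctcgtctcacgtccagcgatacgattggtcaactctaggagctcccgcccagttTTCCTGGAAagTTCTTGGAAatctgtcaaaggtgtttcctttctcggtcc
Socs3: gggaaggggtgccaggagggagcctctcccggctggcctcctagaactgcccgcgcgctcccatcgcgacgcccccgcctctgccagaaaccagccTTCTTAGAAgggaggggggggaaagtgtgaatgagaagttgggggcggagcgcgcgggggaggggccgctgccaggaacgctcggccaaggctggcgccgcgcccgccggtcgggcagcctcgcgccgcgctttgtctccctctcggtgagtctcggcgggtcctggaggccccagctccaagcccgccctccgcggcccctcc
Socs1: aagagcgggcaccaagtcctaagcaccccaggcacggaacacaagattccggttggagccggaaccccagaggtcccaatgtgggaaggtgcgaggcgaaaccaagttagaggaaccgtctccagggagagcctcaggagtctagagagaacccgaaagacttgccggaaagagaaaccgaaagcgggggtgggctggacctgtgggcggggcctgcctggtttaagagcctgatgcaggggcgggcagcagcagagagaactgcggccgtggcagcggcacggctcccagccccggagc
Cish held 2 copies, TTCCTGGAA at bases 0 to 8 and TTCTTGGAA at bases 11 to 19, counted from 0 at the start of transcription. Socs3 held 1, TTCTTAGAA at bases -154 to -146. Socs1 and the promoters of the 5 STAT genes held none, and no promoter searched among the members held TTCNNNNGAA. Of 32851 mouse promoters of the same length, 8.3% held at least 1 TTCNNNGAA, 0.457% held 2 or more, and 6.95% held TTCNNNNGAA. The starts used are those of RefSeq, and the Cish and Socs3 windows lie wholly inside the gene spans given above. For both genes the sequence upstream of the outermost annotated start was therefore not searched. These are matches of letters, with no measurement of binding.

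All 9 genes were detected in all 10 libraries. Levels of different genes are compared here as CPM per kilobase of annotated exon (all GENCODE M21 exons of a gene merged, which lengthens genes with many transcript forms). On that scale the mean level in PBS was highest for Stat6 (35.5), followed by Stat3 (23.8), Socs3 (19.5), Stat5b (14.2), Socs2 (10.6), Cish (6.23), Stat5a (3.4), Socs1 (2.18) and Stat4 (1.36). Stat6 did not overlap Stat3 in PBS, but Stat3 overlapped Socs3, Socs3 overlapped Stat5b, and Stat5a, Socs1 and Stat4 overlapped in turn. In the HDM libraries Socs1 (4.46 CPM per kilobase) stood above Stat5a (3.76) by its mean. In the SF-3-030+HDM libraries Socs2 (17.1) stood above Stat5b (12.7), and Cish (11.9) came close to Stat5b. The top 3 in mean level were Stat6, Stat3 and Socs3 in each group.

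**Figure D1:**
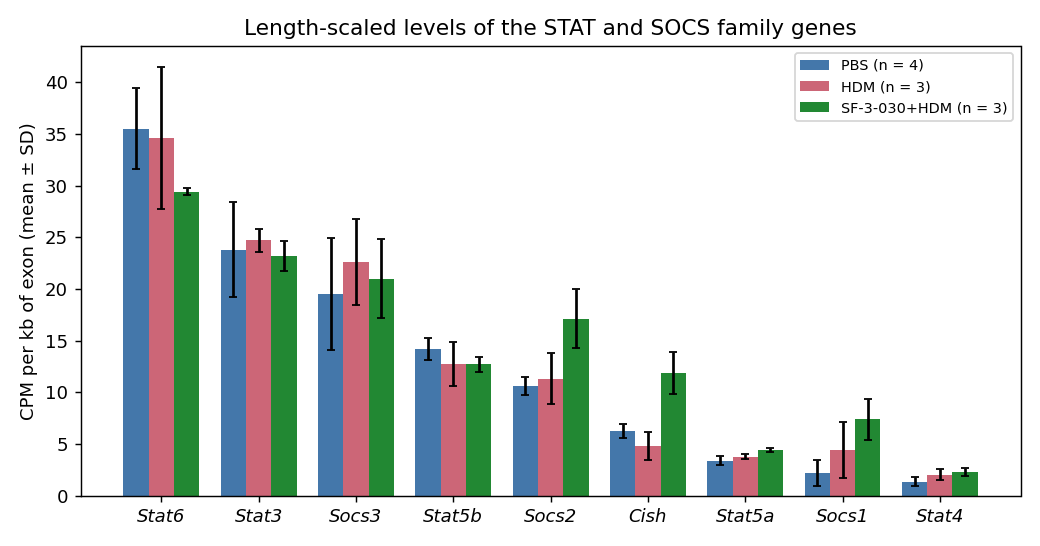
Length-scaled level of each of the 9 genes, in CPM per kilobase of annotated exon on a linear axis from 0. Bars are group means and error bars the SD over 4 PBS, 3 HDM and 3 SF-3-030+HDM libraries. Stat6 has the highest and Stat4 the lowest mean in each group, and Cish and Socs2 have their highest means in SF-3-030+HDM.

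HDM against PBS asks what the allergen did. None of the 9 genes passed the test in this comparison (edgeR quasi-likelihood test, Benjamini-Hochberg adjusted p under 0.05 over all tested genes), where 2.61% of 26235 tested genes did, 2.32% higher and 0.294% lower. DESeq2 and limma-voom also called 0 of 9, and 2 of 9 had an unadjusted p under 0.05 with edgeR. The median log2 fold change of the 9 was 0.13, beside -0.095 over all tested genes. No member's groups stood apart, whereas 11.2% of tested genes had HDM and PBS libraries that did not overlap in CPM, 5.28% higher and 5.97% lower.

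SF-3-030+HDM against HDM compares libraries that differ both by the compound given before the allergen and by the strain difference described above. These cannot be told apart, here or against PBS. Cish, which encodes CIS, was the only member that passed, at a 2.45-fold higher level, where 9.49% of tested genes passed, 3.43% higher and 6.06% lower. Against PBS, the same libraries had higher Cish, Socs1 and Socs2, 3 of 9 members, where 29.9% of tested genes passed, 11.8% higher and 18.1% lower. No member was called lower in any comparison. The median log2 fold change of the 9 was 0.12 against HDM and 0.41 against PBS, beside -0.034 and -0.105 over all tested genes. The SF-3-030+HDM libraries are shared by these comparisons, so their results are not independent of each other.

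**Figure D2:**
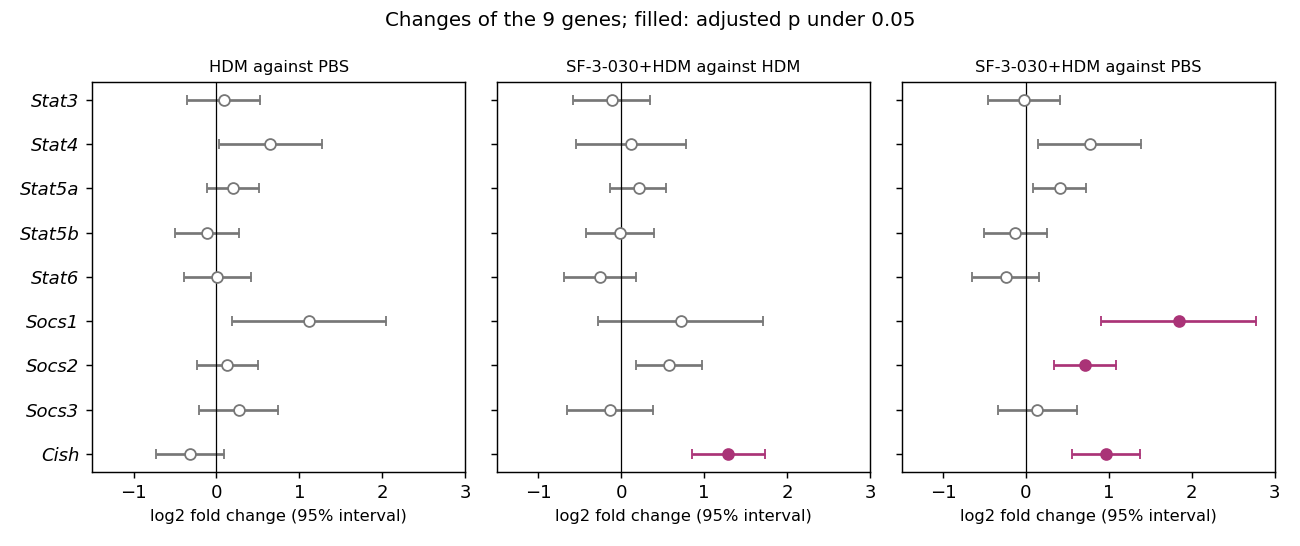
Log2 fold change of each gene in the 3 comparisons, with its 95% interval from the edgeR test. Filled markers passed an adjusted p of 0.05, namely Cish against HDM, and Cish, Socs1 and Socs2 in SF-3-030+HDM against PBS.

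Cish stood at 44.4, 40.3, 41.4 and 33.9 CPM in PBS replicates 1 to 4. The HDM libraries held 28.9, 23.5 and 40.6 CPM, and those of SF-3-030+HDM held 68.8, 91.4 and 69.3 CPM. All 3 SF-3-030+HDM libraries were above all 7 others, while HDM replicates 1 and 2 were below every PBS library and replicate 3 lay within their range. CIS binds activated cytokine receptors and is induced through STAT5. The log2 fold change against HDM was 1.29 ± 0.2 (SE, 95% interval 0.85 to 1.73, n = 3 and 3, edgeR adjusted p = 0.00299). Against PBS it was 0.97 ± 0.19 (SE, n = 3 and 4, edgeR adjusted p = 0.00368). For HDM against PBS it was -0.32 ± 0.19 (SE, interval -0.73 to 0.09, edgeR adjusted p = 0.666), which did not pass. Leaving out each library in turn kept both calls, with edgeR adjusted p of 0.00207 to 0.0235 against HDM and 0.00228 to 0.0245 against PBS. Without the 3 libraries with Y-linked expression the log2 fold change was 1.46 against the single HDM library left (edgeR adjusted p = 0.0406, on the assumption that it varies like the other groups) and 1.0 against PBS (adjusted p = 0.00688).

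Reads of Cish may include those of overlapping transcripts, because the exons of Gm17041, an antisense transcript, and Gm17040 overlap those of Cish on chromosome 9 and the strand setting of the counts is not given in the sources used here. Gm17041 was counted at 7.73 to 8.86 CPM in PBS, 5.33 to 7.66 CPM in HDM and 8.9 to 14.2 CPM in SF-3-030+HDM. Those levels were below that of Cish in every library, and its highest values were in the same 3 libraries.

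Socs1 was the most variable member. SOCS1 blocks JAK activity and is induced by interferon-gamma and by IL-4. Its levels were 11.2, 7.01, 3.31 and 3.8 CPM in PBS, 6.55, 10.6 and 21.8 CPM in HDM, and 16, 27.4 and 20.9 CPM in SF-3-030+HDM. The SF-3-030+HDM libraries stood above all PBS libraries, but HDM replicate 3 lay among them. Against PBS the log2 fold change was 1.84 ± 0.43 (SE, interval 0.9 to 2.77, 3.57-fold, edgeR adjusted p = 0.0101), and it was 1.64 to 2.15 when each library was left out, with adjusted p of 0.005 to 0.0405. Against HDM it was 0.72 ± 0.46 (SE, interval -0.28 to 1.71, edgeR adjusted p = 0.327), and for HDM against PBS it was 1.12 ± 0.43 (interval 0.19 to 2.05, unadjusted p = 0.0223, adjusted p = 0.293, edgeR). Neither passed, and the groups of both overlapped. Leaving out each library moved these values to 0.4 to 1.26 and 0.59 to 1.48, the lowest without HDM replicate 1 and without HDM replicate 3, respectively. Without the 3 libraries with Y-linked expression HDM against PBS gave 0.14. Without the libraries with Y-linked expression the change against PBS was 1.92 (edgeR adjusted p = 0.00941).

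Socs2, a target of growth hormone and STAT5 that restrains growth hormone signalling, stood at 99.1, 111, 101 and 90.9 CPM in PBS. It stood at 123, 80.4 and 119 CPM in HDM and at 173, 183 and 132 CPM in SF-3-030+HDM. The SF-3-030+HDM libraries were above all others, with replicate 3 closest to the HDM libraries. The log2 fold change was 0.71 ± 0.17 against PBS (SE, interval 0.34 to 1.08, 1.63-fold, edgeR adjusted p = 0.0114), but without SF-3-030+HDM replicate 2 the adjusted p was 0.0587 and the call was lost. Against HDM it was 0.58 ± 0.18 (SE, interval 0.18 to 0.98, edgeR adjusted p = 0.066), which did not pass, whereas DESeq2 gave 0.53 with an adjusted p of 0.025. Without the libraries with Y-linked expression the change against PBS was 0.79 (edgeR adjusted p = 0.0147).

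Socs3, the feedback inhibitor of receptors that signal through gp130 and STAT3, passed in no comparison. Its levels were 65.2, 73.5, 47.7 and 39.3 CPM in PBS, 57.6, 59.4 and 79.3 CPM in HDM, and 59.2, 72.3 and 50.6 CPM in SF-3-030+HDM. The groups overlapped. HDM against PBS gave a log2 fold change of 0.27 ± 0.22 (SE, interval -0.21 to 0.74) and SF-3-030+HDM against HDM gave -0.13 ± 0.23 (interval -0.65 to 0.38).

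**Figure D3:**
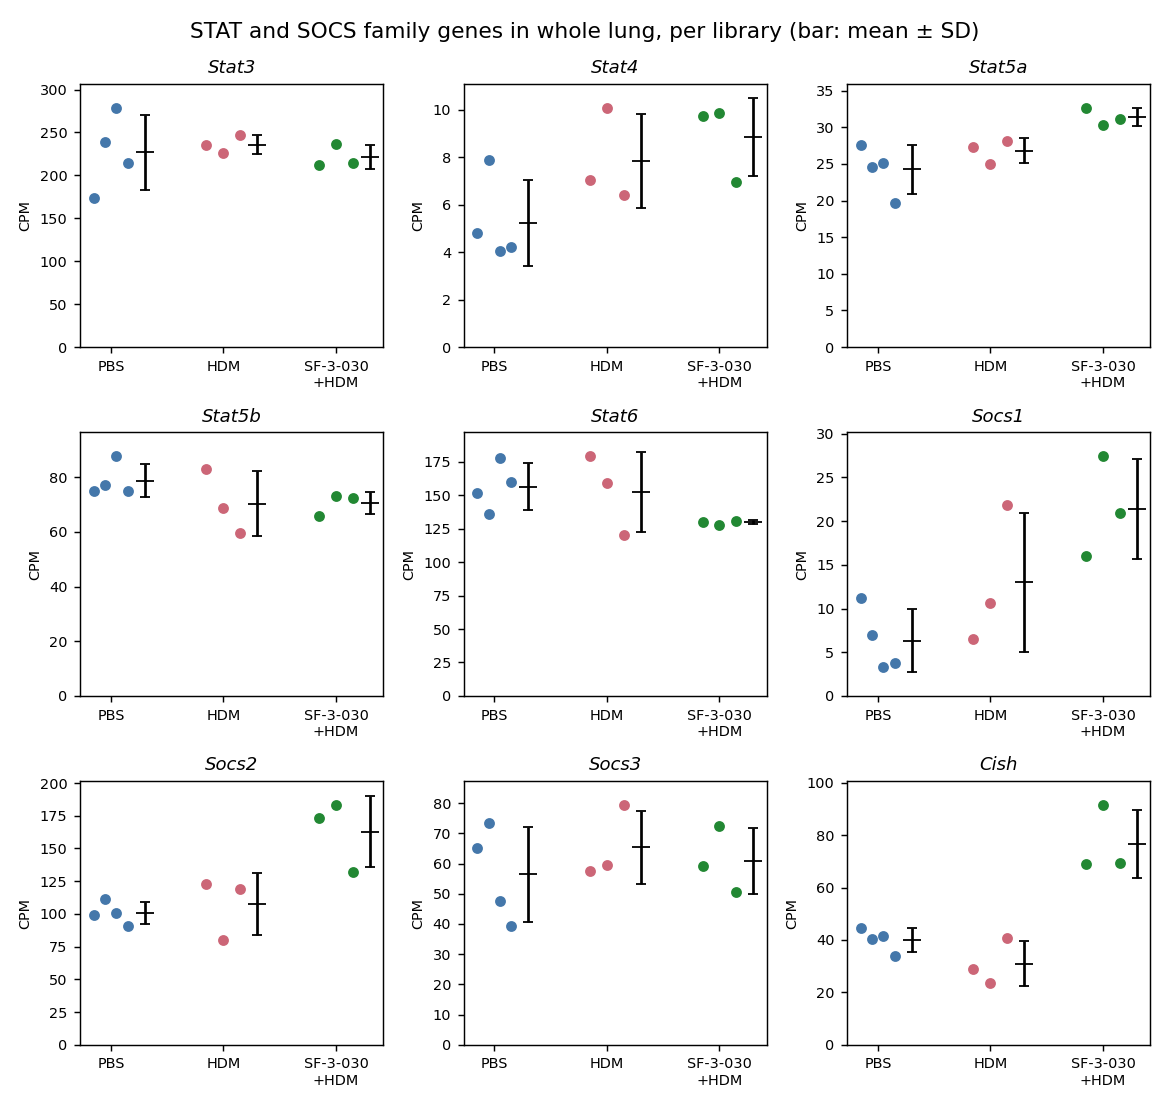
CPM of each of the 9 genes in every library, with the group mean and SD. In the Cish and Socs2 panels the 3 SF-3-030+HDM libraries lie above the other 7, in the Socs1 panel they lie above the 4 PBS libraries, and in the Stat3 and Socs3 panels the groups overlap.

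None of the 5 STAT genes passed in any of the 3 comparisons. Stat4, which is expressed mainly in T and NK cells and acts in the Th1 response, stood at 4.81, 7.91, 4.04 and 4.22 CPM in PBS, 7.04, 10.1 and 6.42 CPM in HDM, and 9.73, 9.87 and 6.98 CPM in SF-3-030+HDM. PBS replicate 2, a library with Y-linked expression, was the highest of its group and overlapped both others. The log2 fold change was 0.65 ± 0.28 for HDM against PBS (SE, interval 0.03 to 1.27, edgeR adjusted p = 0.423) and 0.77 ± 0.28 for SF-3-030+HDM against PBS (interval 0.15 to 1.39, adjusted p = 0.0602). The former was 0.34 without HDM replicate 2 and 0.95 without PBS replicate 2 (edgeR adjusted p = 1.0 and 0.0689). Without PBS replicate 2 the change of SF-3-030+HDM against PBS was 1.07 (edgeR adjusted p = 0.00906), and without all 3 libraries with Y-linked expression it was 1.08 (adjusted p = 0.00584), and Stat4 then passed. Gm28177, which lies on the same strand and shares exon sequence with Stat4, was counted at 5.28 to 25.9 CPM in PBS, 8.98 to 15.7 CPM in HDM and 6.92 to 10.4 CPM in SF-3-030+HDM, and a split of reads between it and Stat4 cannot be checked from the counts.

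Stat5a and Stat5b are close paralogs next to each other on chromosome 11, so reads could be divided between them uncertainly. Stat5a stood at 27.6, 24.6, 25.1 and 19.7 CPM in PBS, 27.3, 25 and 28.2 CPM in HDM, and 32.7, 30.3 and 31.1 CPM in SF-3-030+HDM. The last 3 were above all other libraries. The log2 fold change was 0.21 ± 0.15 against HDM (SE, interval -0.13 to 0.54, edgeR adjusted p = 0.408) and 0.41 ± 0.14 against PBS (interval 0.09 to 0.72, adjusted p = 0.0507), neither past the threshold. Stat5b stood at 74.9 to 87.6 CPM in PBS, 59.5 to 82.9 CPM in HDM and 65.8 to 73.1 CPM in SF-3-030+HDM, with a log2 fold change of -0.12 ± 0.17 for HDM against PBS (SE, interval -0.5 to 0.27) and of -0.02 ± 0.19 for SF-3-030+HDM against HDM (interval -0.42 to 0.39). The share of Stat5a in the length-scaled sum of both genes was 17% to 22.2% for PBS, 20.4% to 26.9% with HDM, and 24.3% to 27.8% with SF-3-030+HDM.

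Stat6, the effector of IL-4 and IL-13, did not pass. It stood at 152, 136, 178 and 160 CPM in PBS, 179, 159 and 120 CPM in HDM, and 130, 128 and 131 CPM in SF-3-030+HDM. The last 3 were below all PBS libraries, but HDM replicate 3 was lower still. The log2 fold change was 0.01 ± 0.19 for HDM against PBS (SE, interval -0.39 to 0.42) and -0.24 ± 0.19 for SF-3-030+HDM against PBS (interval -0.65 to 0.16, edgeR adjusted p = 0.344).

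Stat3, the effector of IL-6 family cytokines, stood at 174 to 279 CPM in PBS, 226 to 247 CPM in HDM and 212 to 237 CPM in SF-3-030+HDM. HDM and SF-3-030+HDM libraries all lay inside the PBS range. HDM against PBS gave a log2 fold change of 0.09 ± 0.2 (SE, interval -0.35 to 0.53) and SF-3-030+HDM against HDM gave -0.11 ± 0.21 (interval -0.58 to 0.35). Exons of Stat3 and Stat5a overlap on opposite strands, and those of Stat6 and Nab2 overlap as well, so without a strand setting some reads of these pairs cannot be told apart.

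Counting by groups that stood apart, with no test, 3 members were higher in all SF-3-030+HDM libraries than in all HDM libraries (Stat5a, Socs2 and Cish) and 0 were lower, where 37.6% of tested genes stood apart, 15.1% higher and 22.4% lower. Against PBS 4 members were higher (Stat5a, Socs1, Socs2 and Cish) and 2 lower (Stat5b and Stat6), where 38.8% stood apart, 17% higher and 21.8% lower.

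Whole lung mixes many cell types, and in such bulk samples fewer cells of a type and less RNA per cell cannot be told apart. Markers of several cell types moved with the groups. In SF-3-030+HDM, changes in cell numbers, the compound and a strain difference in single marker genes cannot be told apart. Lung epithelial markers summed to 72931 to 80733 CPM in PBS, 48998 to 67979 CPM in HDM and 45925 to 48918 CPM in SF-3-030+HDM. These sums did not overlap, but those of HDM and SF-3-030+HDM nearly met. By gene, Sftpa1 overlapped between all groups (3480 to 4840, 3820 to 5180 and 3710 to 5000 CPM in the same order). Scgb1a1 overlapped between HDM (14500 to 19000 CPM) and SF-3-030+HDM (17000 to 22200 CPM), and Sftpc between PBS and HDM. Sftpb, Sftpc and Foxj1 were lower in all SF-3-030+HDM libraries than in all others. T cell markers summed to 94.1 to 150 CPM in PBS, 186 to 235 CPM in HDM and 209.5 to 238 CPM in SF-3-030+HDM, and B cell markers to 130 to 221, 278.5 to 404 and 551 to 735 CPM. Within the T cell list Cd4 rose (5.65 to 13.6, 27.3 to 39.5 and 29.6 to 31.5 CPM in the same order). Cd8a (6.11 to 15.6, 10.5 to 12.7 and 10.1 to 14.1 CPM) and Cd8b1 (7.08 to 14, 8.54 to 11.1 and 7.56 to 10.2 CPM) overlapped between all groups. All 8 T cell and all 5 B cell markers were detected in every library. Natural killer cell markers summed to 29.9 to 56.5 CPM in PBS, 33.3 to 42 CPM in HDM and 55.7 to 79.4 CPM in SF-3-030+HDM, but within that list Klrb1c was lowest in SF-3-030+HDM (2.2 to 2.59 CPM, beside 4.03 to 6.2 CPM in HDM) and Ncr1 was highest there (4.93 to 8.61 CPM, beside 1.54 to 3.43 CPM). Macrophage markers summed to 117 to 276 CPM in PBS, 450 to 590 CPM in HDM and 440 to 786 CPM in SF-3-030+HDM, although the macrophage receptor gene Marco was at 0.0339 to 0.209 CPM in the last group, beside 5.91 to 12.5 CPM in HDM. Skeletal muscle markers had their lowest sums in SF-3-030+HDM, at 3.43 to 10.2 CPM, beside 28.8 to 39 CPM in HDM and 56.2 to 82.1 CPM in PBS. Most of the PBS sum was Mb (31.6 to 56 CPM) and Ckm (20.4 to 25.7 CPM). Myh2 reached at most 0.768 CPM in any library. Acta1 was not lowest in SF-3-030+HDM (0.349 to 1.16 CPM, beside 0.0668 to 0.674 CPM in HDM). Heart markers were also lowest in SF-3-030+HDM, at 147.5 to 232 CPM, beside 338 to 517 CPM in HDM and 361 to 893 CPM in PBS. Fat cell markers stood at 14.8 to 27.9 CPM in SF-3-030+HDM, below HDM (36.7 to 58.7 CPM) and PBS (30.9 to 60 CPM). Neutrophil markers summed to 190.5 to 242 CPM in SF-3-030+HDM, above HDM (62.5 to 119.5 CPM) and inside the range of PBS (114.5 to 338 CPM), but genes of that list differed. Retnlg (76.7 to 117 CPM, beside 18.3 to 44.3 CPM in PBS) and Cxcr2 (16.8 to 18.3 CPM, beside 6.82 to 14.5 CPM) were above all PBS libraries. S100a8 was below them (25.5 to 34.5 CPM, beside 37.2 to 114 CPM), and S100a9 and Mmp8 overlapped PBS. Eosinophil markers overlapped between HDM (20.1 to 45.1 CPM) and SF-3-030+HDM (34.2 to 51.4 CPM), but the eosinophil peroxidase gene Epx stood at 0.0735 to 0.161 CPM in HDM and 1.72 to 2.75 CPM in SF-3-030+HDM. Erythroid markers stood at 7387 to 19228 CPM in PBS, 4660 to 9199 CPM in HDM and 4050 to 5652 CPM in SF-3-030+HDM. The part of these cell types in the member changes was not tested.

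Set against markers of lymphocytes, the members behaved differently from each other. Stat4 stood at 3.21 to 5.39 CPM per 100 CPM of T cell markers for PBS, 3.08 to 4.32 for HDM and 3.33 to 4.49 for SF-3-030+HDM, and these ranges overlapped in all 3 groups. Cish stood at 27.5 to 42.3 per 100 for PBS, 10 to 19.5 for HDM and 28.9 to 41.6 for SF-3-030+HDM. By this ratio the HDM libraries were below both other groups, and the SF-3-030+HDM libraries lay inside the PBS range. Per 100 CPM of B cell markers, however, Cish stood at 19.4 to 31.8 for PBS, 5.82 to 12.7 for HDM and 9.36 to 16.6 for SF-3-030+HDM, so that the last group was below all PBS libraries and overlapped HDM. Socs2 stood at 66 to 103 per 100 CPM of T cell markers for PBS, 34.2 to 66.1 for HDM and 62.9 to 83.1 for SF-3-030+HDM, which is not above PBS. Socs1 stood at 3.37 to 7.47, 3.52 to 10.4 and 6.73 to 12.5 per 100, with overlap between each pair of groups.

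**Figure D4:**
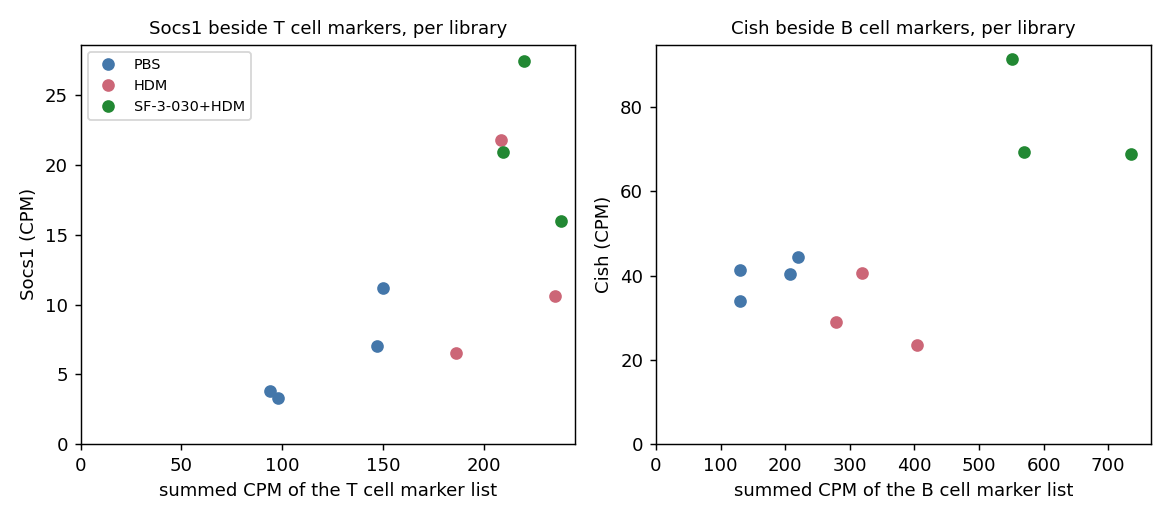
Socs1 in CPM against the summed CPM of T cell markers (left) and Cish in CPM against the summed CPM of B cell markers (right), a point per library, coloured by group. HDM and SF-3-030+HDM libraries overlap in T cell markers, whereas for B cell markers the 3 groups are apart, with the highest sums (551 to 735 CPM) and the highest Cish both in SF-3-030+HDM.

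The genes whose pattern over the 10 libraries was most like that of each member were found by the root mean square (RMS) difference of centred log2(CPM + 0.5) values among 14757 genes. For Socs1, whose own RMS deviation was 0.949, they were Ltb (lymphotoxin beta, RMS difference 0.284) and Lag3 (an inhibitory T cell receptor, 0.295). For Cish (own deviation 0.569) they were Vstm2b (0.179) and Unc45bos (0.202), and for Socs2 (0.359) they were Pcgf6 (0.0852) and Mtfmt (0.0891). For Stat4 (0.438) they were Gbp3 (0.157) and Tagap (0.177). The likeness describes these libraries, which share groups and a strain difference.

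The rest of the pathway was described in lists chosen by role, with earlier results of these data known. Shares over all tested genes are therefore given for scale and not as a test. Over all tested genes, HDM against PBS called 2.32% higher and 0.294% lower. The shares were 3.43% and 6.06% for SF-3-030+HDM against HDM, and 11.8% and 18.1% when it was set against PBS. Counts over the 3 comparisons follow this order. Of the cytokine ligands, 19 of 23 had enough counts to test (Il3, Il9, Il22 and Csf3 did not), and in HDM against PBS 1 rose. That was Il21, a T cell cytokine that signals through STAT3, at 0.368 to 0.807 CPM beside 0 to 0.0353 CPM in PBS. In SF-3-030+HDM against HDM 3 of 19 rose and 0 fell. They were the Th2 cytokines Il4, with a log2 fold change of 1.38 ± 0.39 (SE, edgeR adjusted p = 0.0476), and Il13, with 2.79 ± 0.78 (adjusted p = 0.0461), and the IL-12 subunit gene Il12a, with 1.66 ± 0.35 (adjusted p = 0.0169). Il4 stood at 1.58 to 1.95 CPM and Il13 at 4.6 to 7.6 CPM in SF-3-030+HDM, beside 0.457 to 0.8 and 0.189 to 1.98 CPM in HDM. Each of these 3 calls was lost when some single libraries were left out, in 7 of 10 fits for Il4, 6 for Il13 and 3 for Il12a. Against PBS 7 of 19 ligands rose (11.8% of all tested genes did) and 0 fell, with Il13 at 3.92 ± 0.74 (SE, edgeR adjusted p = 0.00343) and Il5, which drives eosinophils, at 2.56 ± 0.67 (edgeR adjusted p = 0.016, lost without SF-3-030+HDM replicate 2). Of the other called ligands, Osm was lost in 7 of 10 fits that left out a library, Tslp in 5 and Il12a in 2. The numbers of ligand calls that remained without the libraries with Y-linked expression were 0 of 1, 1 of 3 (Il13) and 6 of 7 in the 3 comparisons.

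Among 33 receptor chains, 4 rose and 0 fell in HDM against PBS. They were Il9r (log2 fold change 2.47 ± 0.27, edgeR adjusted p = 0.000984), Il21r (1.72 ± 0.24, adjusted p = 0.00347), and the GM-CSF receptor chains Csf2ra (1.31 ± 0.15, adjusted p = 0.00131) and Csf2rb (1.05 ± 0.23, adjusted p = 0.0318). The call of Csf2rb was lost in 7 of 10 fits that left out a library. In SF-3-030+HDM against HDM 4 rose and 0 fell, namely Il13ra2 (3.88 ± 0.86), Il5ra (1.64 ± 0.36), Csf3r (1.42 ± 0.37) and Il2ra (1.06 ± 0.28), and each of these was lost in 3 to 6 of 10 such fits. Il13ra2 binds IL-13 without passing a STAT6 signal. Il2ra encodes a chain of the high-affinity IL-2 receptor and is itself a STAT5 target. Against PBS 12 of 33 rose (11.8% of all tested genes did) and 0 fell, and Ifnar1 and Il10ra were lost in 5 and 7 of 10 such fits. When the libraries with Y-linked expression were left out, 3 of 4, 0 of 4 and 12 of 12 receptor calls remained in the 3 comparisons. Named for its role and outside the rule for naming genes, Il4ra, the chain shared by the IL-4 and IL-13 receptors, stood at 168 to 234 CPM in PBS, 149 to 202 CPM in HDM and 209 to 234 CPM in SF-3-030+HDM and passed in no comparison.

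Of the 4 JAK genes 0 passed in HDM against PBS, with log2 fold changes of 0.1 (Jak1) to 0.44 (Jak2), and 0 in SF-3-030+HDM against HDM, with -0.09 (Tyk2) to 0.47 (Jak2 and Jak3). Jak3 and Jak2 rose in SF-3-030+HDM against PBS by log2 fold changes of 0.82 ± 0.2 and 0.91 ± 0.23 (SE, edgeR adjusted p = 0.0111 and 0.0132). The Jak2 call was lost without SF-3-030+HDM replicate 1 or 2. Stat2, which is not a member and acts in the type I interferon response, rose in SF-3-030+HDM against PBS by 0.51 ± 0.17 (edgeR adjusted p = 0.0434), a call lost in 9 of 10 fits that left out a library. Socs4, Socs5, Socs6 and Socs7, which are less tied to cytokine feedback, passed in no comparison. Among 8 other inhibitors, the phosphatase gene Ptpn2 rose by 0.79 ± 0.18 against HDM (edgeR adjusted p = 0.0259, lost in 5 of 10 such fits) and by 1.02 ± 0.17 against PBS (adjusted p = 0.00154), and Ptpn6 rose by 1.0 ± 0.17 against PBS (adjusted p = 0.00178). Without the libraries with Y-linked expression the calls of Jak2, Jak3, Ptpn2 and Ptpn6 against PBS remained, and those of Stat2 against PBS (0.48, edgeR adjusted p = 0.097) and of Ptpn2 against HDM (0.84, adjusted p = 0.218) did not.

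Genes known to be induced through each STAT were counted beside the factors. Of 13 genes induced through STAT6, 4 rose in HDM against PBS, among them the chitinase-like gene Chil3 (2.39 ± 0.4, edgeR adjusted p = 0.00867) and the arginase gene Arg1 (3.62 ± 0.62, adjusted p = 0.00912), while Stat6 itself stood at 0.01 ± 0.19. The other calls, Alox15 and Fcer2a, were lost in 6 and 7 of 10 fits that left out a library. In SF-3-030+HDM against HDM 3 of 13 rose, the eotaxin gene Ccl11 (2.85 ± 0.62), the low-affinity IgE receptor gene Fcer2a (1.69 ± 0.37) and the Th2 factor Gata3 (0.71 ± 0.18), and each was lost in 4 to 6 of 10 fits that left out a library. Against PBS 12 of 13 rose (11.8% of all tested genes did) and 0 fell, and Clca1 was lost in 2 of 10 such fits. The remaining gene, Ccl17, went the other way and passed in no comparison. It stood at -0.76 ± 0.32 against PBS (SE, edgeR adjusted p = 0.0907) and -1.11 ± 0.34 against HDM (adjusted p = 0.0589). Its SF-3-030+HDM libraries (6.85 to 9.47 CPM) were below all of PBS (10.1 to 21 CPM) and HDM (11.2 to 27.3 CPM). Without the libraries with Y-linked expression 1 of 4 (Alox15), 2 of 3 (Ccl11 and Fcer2a) and 12 of 12 calls of this list remained in the 3 comparisons, with Arg1 in HDM against PBS at 1.76 (edgeR adjusted p = 0.0632) and Chil3 at 2.09 (adjusted p = 0.12). The median log2 fold changes of this list were 2.05, 1.22 and 3.21 in these 3 comparisons, beside -0.095, -0.034 and -0.105 over all tested genes.

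Of 8 genes induced through STAT5, the pathway that also induces Cish, 1 rose in HDM against PBS (Igf1, 1.83 ± 0.25, edgeR adjusted p = 0.00309). In SF-3-030+HDM against HDM 3 rose, Igf1 (1.21 ± 0.27), Il2ra, which is also in the receptor list, and the kinase gene Pim1 (0.74 ± 0.21, edgeR adjusted p = 0.0463), each lost in 5 to 8 of 10 fits that left out a library. Against PBS 5 of 8 rose and 1 fell, where 11.8% and 18.1% of all tested genes did. Of these calls, Osm was lost in 7 of 10 such fits and Bcl2l1, the gene that fell, in 1. The same omission of libraries with Y-linked expression kept 1 of 1, 1 of 3 (Igf1) and 6 of 6 calls of this list. Of 10 genes induced through STAT3, 1 rose (Pim1) and 1 fell (Lrg1, -1.0 ± 0.28, edgeR adjusted p = 0.0442, lost in 6 of 10 such fits) in SF-3-030+HDM against HDM, and 6 rose and 2 fell against PBS (11.8% and 18.1% of all tested genes), with the haptoglobin gene Hp at -1.41 ± 0.26 (adjusted p = 0.00265). Among the calls against PBS, Bcl3 was lost in 7 of 10 such fits, Lcn2 in 2 and Cebpd, which fell, in 1. In HDM against PBS 1 of the 10 rose, the neutrophil and epithelial gene Lcn2 (edgeR adjusted p = 0.0456), lost in 8 of 10 such fits. Of the calls of this list 0 of 1, 0 of 2 and 8 of 8 remained once the libraries with Y-linked expression were left out, and Lrg1 against HDM was -0.31.

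**Figure D5:**
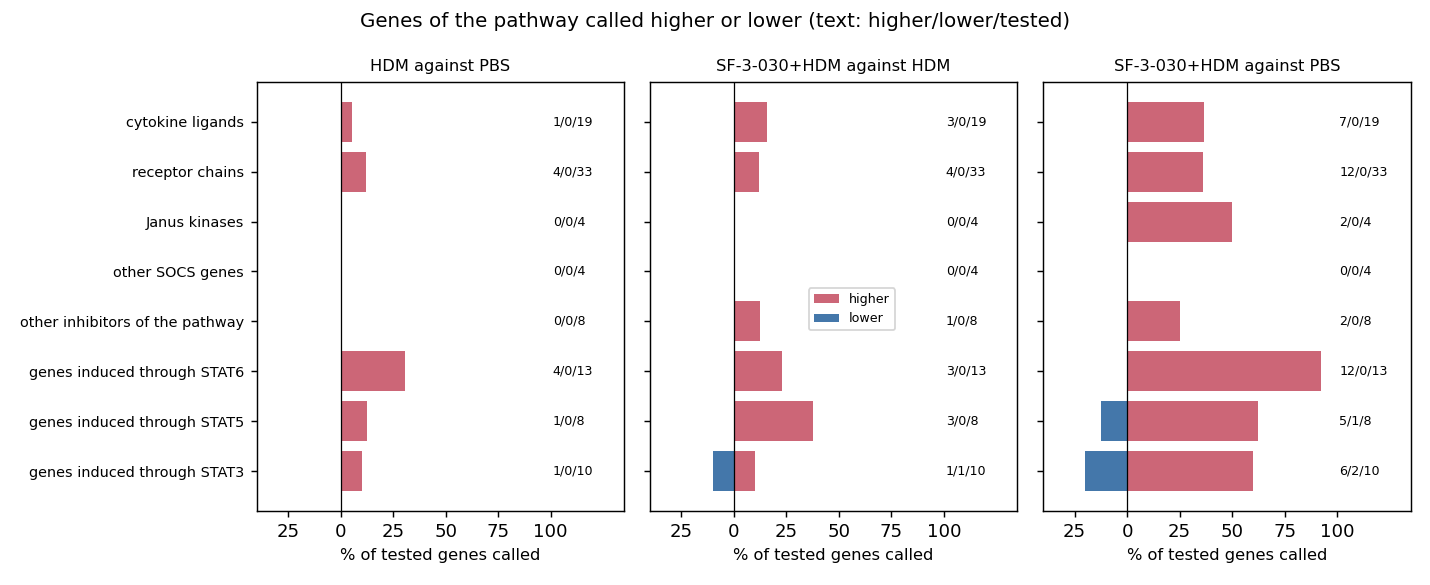
Percentage of the tested genes of each pathway list shown that passed an adjusted p of 0.05 as higher (bars to the right of 0) or lower (to the left), in the 3 comparisons, with the counts higher, lower and tested printed beside each bar. The list of genes induced through STAT6 has 4, 3 and 12 of 13 higher, and the other SOCS genes have 0 of 4 in each comparison.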

How the data were processed

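Adaptor trimming with Trimmomatic 0.36 and alignment with STAR 2.5.2b to GRCm38 are named in the submitters' processing notes. How reads were counted (tool, annotation, strand) is not given in the sources used here. The authors deposited a table with expected counts per gene (estimated read counts, not normalized) and columns headed as normalized. The deposited normalized columns hold log2 values and were not used. In the expected count columns 34.4% of cells were blank and were read as 0. Of 53342 gene IDs, 53237 were in GENCODE M21, from which positions and exon lengths came.

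Expected counts were rounded and tested with edgeR 4.0.16 (R 4.3.3, TMM scaling, filterByExpr, quasi-likelihood test, all 10 libraries in one model). P-values were adjusted by the Benjamini-Hochberg method over 26235 tested genes, with a threshold of 0.05. Standard errors are the log2 fold change divided by the root of the test's F. Intervals are 95% and cover the spread between libraries. DESeq2 1.42.0, limma-voom (limma 3.58.1), other scalings and filters, covariates, a replicate block and leaving out libraries were alternatives. The procedure was tested on simulated data. From each pathway list up to 4 genes past the threshold with the smallest p could be named, with Stat2 and the JAK genes. Also named were genes whose calls were lost when a library was left out, and Ccl17, which did not pass. Some genes and lists of the pathway are not reported here. The members and lists were chosen with earlier results of these data known. Replicate numbers came from the labels, and the main test did not use them as a pairing.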

Additional observations from a re-analysis of the deposited data

How the results depend on the processing

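Each of the 27 log2 fold changes of members was recomputed under 22 alternatives, and of 594 values 551 kept their direction and side of the threshold, 9 newly passed, 4 no longer passed and 30 changed sign, all 30 of them in values that had not passed. The Cish calls against HDM and against PBS passed in all 22 alternatives. Members called in SF-3-030+HDM against HDM were 2 with DESeq2 (Socs2 and Cish) and 1 to 2 when each library was left out, and against PBS they were 5 with DESeq2 (with Stat4 and Stat5a) and 2 to 4 with each library left out, beside 0 in every fit of HDM against PBS. Deviations of same-numbered libraries correlated at -0.46 to 0.29, which cannot decide whether replicate numbers pair libraries, because the groups are so small. With the replicate block 1 member passed against PBS (Cish), Socs1 standing at 1.59 (edgeR adjusted p = 0.0846) and Socs2 at 0.67 (adjusted p = 0.091). Socs2 against PBS also no longer passed with a covariate for receptor background, the summed level of olfactory and vomeronasal receptor genes, which set PBS replicates 1 and 4 and HDM replicate 3 apart (0.55, edgeR adjusted p = 0.144). Stat4 against PBS newly passed with DESeq2 (0.73), with no filter on low counts (0.77) and with a covariate for Y-linked expression (0.99), Stat5a with DESeq2 (0.36) and Stat6, as lower, with upper-quartile scaling (-0.44). That scaling moved the median of all genes to -0.151, -0.186 and -0.307 in HDM against PBS, SF-3-030+HDM against HDM and SF-3-030+HDM against PBS.

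Signs changed in HDM against PBS with upper-quartile scaling (Stat6, -0.04), with the background covariate (Stat6, -0.01), without the libraries with Y-linked expression (Stat5b, 0.06) and without the 3 libraries with most receptor background (Stat3, -0.14, Socs2, -0.05 and Socs3, -0.01). In SF-3-030+HDM against HDM they changed with upper-quartile scaling (Stat4, -0.01), with the Y-linked covariate (Socs3, 0.21), with the background covariate (Stat4, -0.24), without the libraries with Y-linked expression (Socs3, 0.13) and without those with most background (Stat4, -0.05). Against PBS they changed with upper-quartile scaling (Socs3, -0.07), limma-voom (Stat3, 0.01), the Y-linked covariate (Stat3, 0.01), without the libraries with Y-linked expression (Stat3, 0.03) and without those with most background (Socs3, -0.04). With each library left out, HDM against PBS ranged from -0.04 to 0.24 for Stat3, -0.22 to 0.01 for Stat5b and -0.08 to 0.18 for Stat6. SF-3-030+HDM against HDM ranged from -0.03 to 0.44 for Stat4 and -0.14 to 0.09 for Stat5b, and against PBS from -0.18 to 0.13 for Stat3 and -0.02 to 0.32 for Socs3. The cause of these changes was not tested.

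Counts over all genes moved more. In HDM against PBS 685 genes passed, beside 243 without the libraries with most background and 1466 with DESeq2. In SF-3-030+HDM against HDM 2491 passed, beside 543 without the libraries with Y-linked expression and 5303 with DESeq2, and against PBS 7842 passed, beside 2632 with the replicate block and 10005 with DESeq2. The lowest member, Stat4, held 186 expected counts or more per library, and counting error was not separated from the spread between libraries. The pathway calls without the libraries with Y-linked expression were an alternative chosen after seeing the data.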
